A study of Homo sapiens with 27 samples.

Results

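The 41 interferon-stimulated genes described here are transcripts that cells raise when interferon reaches its receptors. They were taken by name from a list of 41 symbols, and each had a row among the 21487 gene identifiers of the count table. RNA was sequenced from Panc1, an established human pancreatic ductal adenocarcinoma cell line, and from clones A and B, which carry a CRISPR-Cas9 knockout of ARNT and were derived independently of each other. ARNT is the shared partner of the hypoxia-inducible factors, and the labels give its part in the hypoxic response as the purpose of the study. Clone A, clone B and parental cells were each kept for 48 hours in normoxia (20% O2) with regular medium (DMEM with 10% FBS and 1% penicillin and streptomycin), in hypoxia (1% O2) with that medium, or in hypoxia with TIFM. TIFM is a medium made after the interstitial fluid of tumors, and it was used only in hypoxia. Each of the 9 groups had 3 polyA RNA libraries. Each knockout is represented by the descendants of a single cell, so what is particular to ARNT and what is particular to a clone cannot be told apart by either clone alone.

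Interferons are secreted proteins that bind cell surface receptors and, through JAK kinases, activate STAT proteins. STAT2 and IRF9 are parts of a transcription complex that binds the interferon-stimulated response element (ISRE) in gene promoters. The genes it raises include sensors of viral RNA, enzymes that block viral replication and proteins that feed back on the signal itself. Many tumor cell lines keep a low level of these transcripts without added interferon, and no interferon treatment is named in the labels.

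Of the 41 genes, 33 had enough counts to be tested and 8 did not. IFIT1, IFIT2, IFIT3, IRF1, TRIM22 and CXCL10 were listed at 0 in all 27 libraries. IFI44L had 13 counts and IRF9 had 51 counts over all libraries. A 0 in this table cannot be read as absence of the transcript: SDHA, OAZ1, PSMA3 and PPP2CA, which every cell uses, were also listed at 0 throughout. Of the exon length of XAF1, 38.3% is shared with PRAL, so its counts may mix both genes, and for IRF9 the share is 48.4%. USP18 has a near-identical copy, USP41, and its counts are uncertain for that reason. Among the 33 tested genes, 25 averaged at least 1 CPM over the 27 libraries. CPM is the count divided by the library total after TMM scaling, a correction for library composition, and then scaled up by a fixed factor.

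Library totals lay between 26057022 and 38341713 counts. The labels do not say that replicates came from separate cultures, so p-values measure the spread between these libraries only. That spread, as a biological coefficient of variation, was 29.2% in clone A in TIFM, the highest of the 9 groups, against 14.1% over all groups. ARNT transcripts averaged 75.5 CPM in clone A, 63.9 CPM in clone B and 71.2 CPM in parental cells in normoxia, which does not check a CRISPR knockout. ARNT, VEGFA, PDK1 and NDRG1 were the 4 genes taken as checks of the labels. Of these, 3 had a lower hypoxia response in each clone than in parental cells. Of all genes, 4.04% had a lower response in clone A and 3.24% in clone B. Ductal keratins and other ductal markers summed to between 1520 and 8030 CPM per group, and VIM with ZEB1 to between 2080 and 5790 CPM. Leukocyte markers summed to between 84.9 and 238 CPM, nearly all of it CD68, whose exons are 85.8% shared with other genes. Plasmacytoid dendritic cell, endothelial and fibroblast markers summed to at most 1.35, 1.13 and 8.49 CPM. Of the 8 ductal markers, 6, 5 and 6 were lower in clone A than in parental cells in normoxia, hypoxia and TIFM. Of all genes 15.8%, 20.9% and 30.7% were lower there. In clone A 1 ductal marker was higher in normoxia and 1 in hypoxia. In clone B 1, 2 and 6 were lower and none higher, where 13.3%, 19% and 25.4% of all genes were lower. The part of the ductal markers in the results below was not tested. In bulk RNA, fewer cells of a type and less RNA per cell cannot be told apart.

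Several of the genes are neighbours in the genome (GRCh38, GENCODE v29). OAS1, OAS3 and OAS2 stand in a row on chromosome 12, IFIT2, IFIT3, IFIT1 and IFIT5 on chromosome 10, and MX2 next to MX1 on chromosome 21. SAMD9 and SAMD9L lie side by side on chromosome 7, DDX60 and DDX60L on chromosome 4, and IFI44L and IFI44 on chromosome 1. PARP9 and DTX3L start from nearly the same place on opposite strands of chromosome 3, with PARP14 close by.

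A feature that the list did not use is the letters of the promoters. RefSeq promoter sequences (GRCh38.p14) were found for 34 of the 41 genes. In the 250 bases before the start site, 24 of these 34 genes (70.6%) held the ISRE-like motif GAAANNGAAA on either strand, against 3.71% of 27305 genes in the table. The GAS-like motif TTCNNNGAA, named for the interferon-gamma activated site, was in 10 of 34 genes (29.4%) against 8.09% of all genes. The HRE core ACGTG, which HIF complexes with ARNT bind, was in 7 of 34 (20.6%) against 21.7% of all. GAS-like and ISRE-like matches overlapped in BST2, EPSTI1, IFI27 and MX1, and a match describes letters, not binding.

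The stretches show ISRE-like matches in capitals, around the match nearest the start site, with up to 45 bases on each side, written 5′ to 3′ on the gene's strand and ending no later than the start site. The first 8 belong to genes whose transcripts were lower in a knockout clone in the tests that follow. ISG15 and IFI27 are shown because they hold matches too and were mostly not lower. STAT2 is shown as a member whose promoter held no match and whose transcript was called in no clone comparison with parental cells. It does not stand for all members without a match: of 8 tested, 5 were lower in clone A in normoxia and 3 in clone B.
IFIH1: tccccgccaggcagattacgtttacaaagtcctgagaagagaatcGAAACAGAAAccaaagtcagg
DDX60: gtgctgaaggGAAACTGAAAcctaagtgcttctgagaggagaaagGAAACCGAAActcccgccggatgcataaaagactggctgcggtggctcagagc
DDX60L: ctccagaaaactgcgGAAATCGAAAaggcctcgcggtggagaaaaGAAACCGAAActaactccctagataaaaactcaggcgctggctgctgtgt
SAMD9: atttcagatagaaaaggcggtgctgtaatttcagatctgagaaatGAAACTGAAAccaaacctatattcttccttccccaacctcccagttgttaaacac
BST2: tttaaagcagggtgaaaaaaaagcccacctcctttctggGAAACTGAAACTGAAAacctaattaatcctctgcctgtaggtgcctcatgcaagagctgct
PARP9: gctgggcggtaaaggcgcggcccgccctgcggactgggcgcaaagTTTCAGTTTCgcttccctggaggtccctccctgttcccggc
RTP4: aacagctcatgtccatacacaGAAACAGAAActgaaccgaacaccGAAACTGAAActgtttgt
LGALS3BP: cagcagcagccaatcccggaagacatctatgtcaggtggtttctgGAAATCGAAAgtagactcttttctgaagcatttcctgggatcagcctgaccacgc
ISG15: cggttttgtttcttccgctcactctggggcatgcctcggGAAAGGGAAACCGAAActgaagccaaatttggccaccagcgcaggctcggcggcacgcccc
IFI27: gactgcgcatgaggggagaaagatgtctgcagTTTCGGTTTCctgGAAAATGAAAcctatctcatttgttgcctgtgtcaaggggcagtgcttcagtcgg
STAT2: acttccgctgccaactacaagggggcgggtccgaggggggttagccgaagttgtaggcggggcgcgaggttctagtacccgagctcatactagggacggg

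On GRCh38.p14 the stretches lie at chr2:162318685-162318750 (IFIH1, minus strand), chr4:168318753-168318850 (DDX60, minus), chr4:168480493-168480587 (DDX60L, minus) and chr7:93118061-93118160 (SAMD9, minus). BST2 is at chr19:17405700-17405799 (minus), PARP9 at chr3:122564301-122564386 (minus), RTP4 at chr3:187368322-187368384 (plus) and LGALS3BP at chr17:78979927-78980026 (minus). ISG15 is at chr1:1013345-1013444 (plus), IFI27 at chr14:94110596-94110695 (plus) and STAT2 at chr12:56360108-56360207 (minus). In BST2 and ISG15 a pair of matches share 4 letters, so that the element reads as a run of 3 GAAA units.

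**Figure D1:**
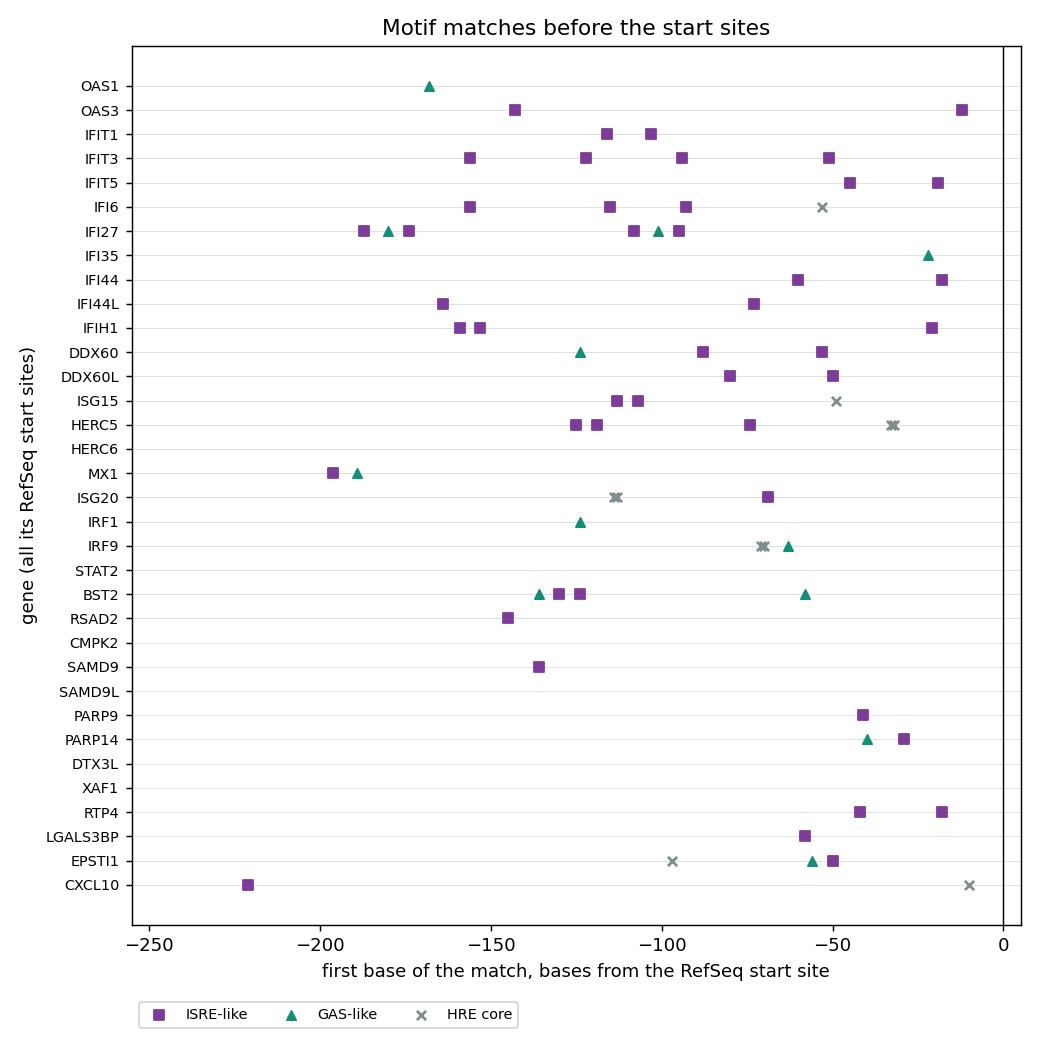
Position of each motif match (horizontal axis, bases from the RefSeq start site, all start sites of a gene pooled) in the 250 bases before the start sites of the 34 genes with a promoter sequence. Purple squares (ISRE-like) stand in 24 of the 34 rows, green triangles (GAS-like) in 10 and grey crosses (HRE core) in 7.

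The transcripts were mostly lower in the knockout clones than in parental cells, and further below in clone A than in clone B. In normoxia, edgeR's quasi-likelihood test with Benjamini-Hochberg adjustment called 27 of the 33 tested genes in clone A against parental cells, 26 lower and 1 higher (MX2), where 31.6% of all 13943 tested genes were called. The median log2 fold change of the 33 genes was -1.69, against 0.036 over all genes. In clone B 17 were called, all of them lower, where 26.5% of all genes were called; the median was -0.62 against 0.008. Leaving out any 1 of the 6 libraries of the clone B comparison gave 12 to 14 called genes. Both comparisons use the same 3 parental libraries.

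In hypoxia, 29 genes were lower and 1 (IFI27) higher in clone A (41.4% of all genes called), with a median of -1.64 against 0.033. In clone B 18 were lower and none higher (35.9% of all genes called), with a median of -0.83 against 0.015. In TIFM, 23 were lower and none higher in clone A (61.7% of all genes called, 30.7% lower), with a median of -2.47, and 23 were lower and none higher in clone B (47.5%), with a median of -1.09. The medians over all genes were then -0.0098 and -0.0087. Genes with few counts pass the filter only through a group where they are high, which favours such differences. Of the 25 tested genes that averaged at least 1 CPM, 19, 22 and 18 were lower in clone A in normoxia, hypoxia and TIFM, and 13, 15 and 20 in clone B. That average includes the parental libraries, so a gene can still reach it through them alone, and these counts do not remove the preference. The share of lower genes among all genes at the same cut was not computed.

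**Figure D2:**
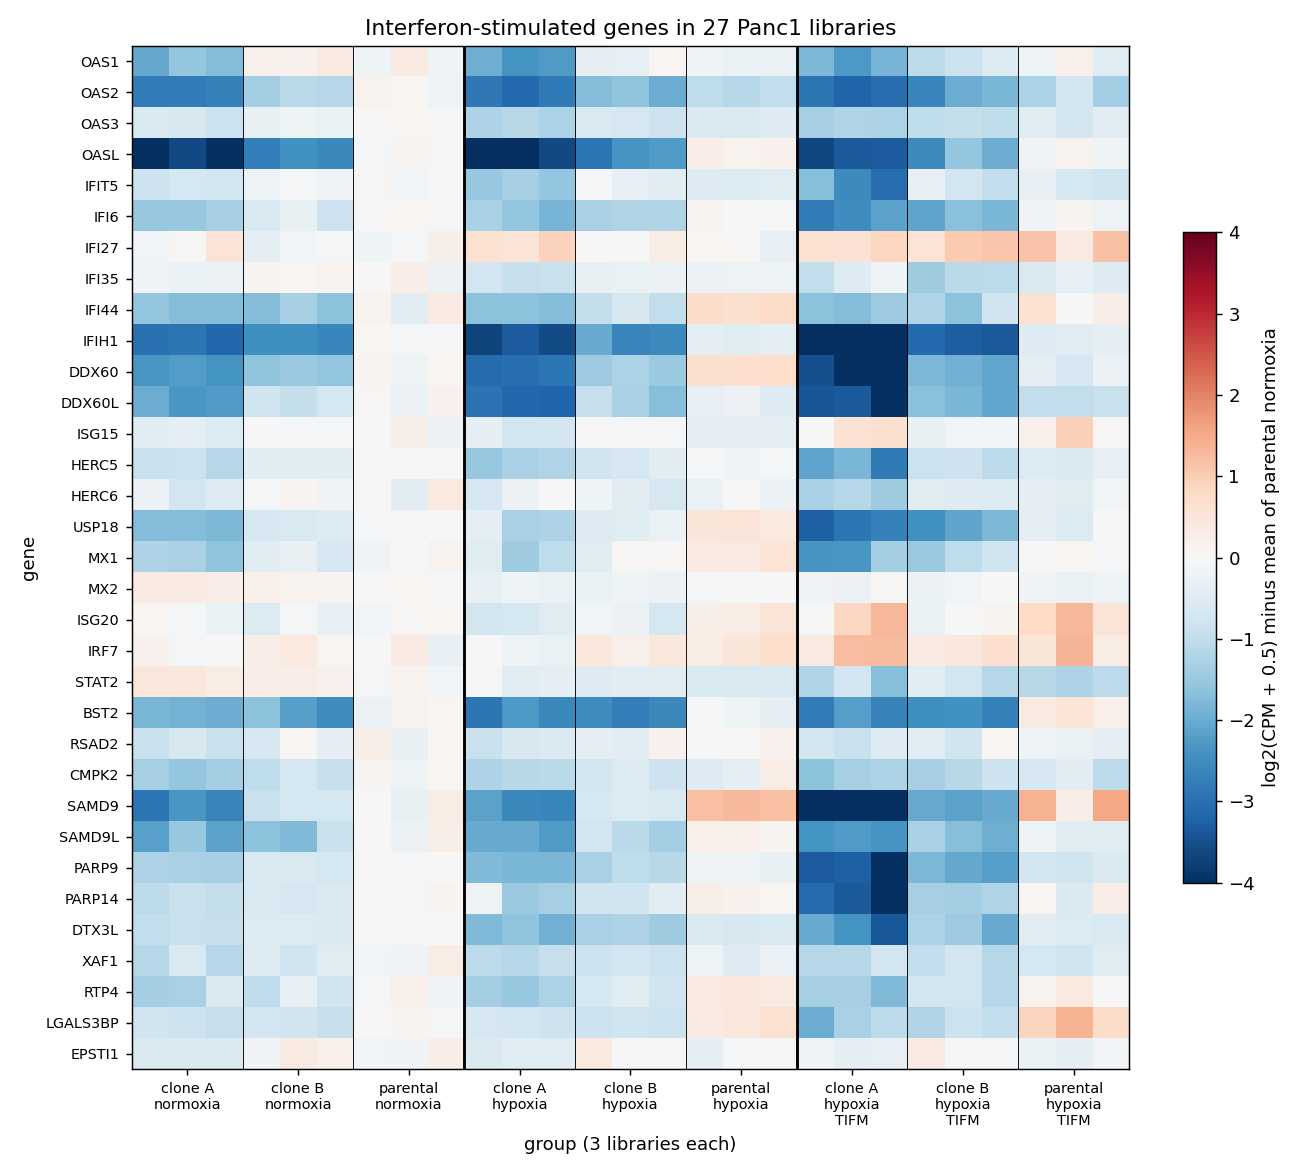
Log2(CPM + 0.5) of the 33 tested genes (rows) in the 27 libraries (columns, 3 per group), minus the mean of the parental normoxia libraries; colours stop at -4 and 4. Clone A columns are blue for most genes, with SAMD9 and IFIH1 in TIFM among the darkest. Clone B columns are paler, and MX2 stays near white in all 9 groups.

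IFIH1 and the DDX60 pair, the sensors and helicases of the list, were lower than in parental cells in both clones and all 3 conditions. IFIH1 (MDA5) recognises long double-stranded RNA; it lies on chromosome 2 (162267079 to 162318703, minus strand). In normoxia IFIH1 had 2.99, 3.18 and 2.65 CPM in clone A, 4.53, 4.51 and 4.07 CPM in clone B, and 28.5, 26.5 and 26.5 CPM in parental cells. No clone library came near a parental one. The log2 fold changes were -3.21 ± 0.16 (SE, adjusted p = 2.93e-14, edgeR quasi-likelihood test) in clone A and -2.63 ± 0.16 (adjusted p = 6.52e-13) in clone B. In hypoxia IFIH1 had 1.64, 2.24 and 1.82 CPM in clone A, 6.3, 3.93 and 4.22 CPM in clone B, and 20.5, 19.1 and 20.9 CPM in parental cells (log2 -3.41 ± 0.17 and -2.07 ± 0.15). In TIFM IFIH1 had 0.535, 0.416 and 0.296 CPM in clone A, 2.73, 2.32 and 2.19 CPM in clone B, and 19, 20 and 21.3 CPM in parental cells. The difference was then widest, at -5.54 ± 0.21 (adjusted p = 6.17e-17) in clone A and -3.05 ± 0.16 (adjusted p = 8.91e-14) in clone B.

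DDX60, an RNA helicase-like protein of the antiviral response, lies on chromosome 4 (168216293 to 168318807, minus strand). In normoxia DDX60 had 3.09, 3.37 and 2.97 CPM in clone A, 5.44, 6.02 and 5.63 CPM in clone B, and 19.1, 15.2 and 18.8 CPM in parental cells (log2 -2.49 ± 0.17 and -1.63 ± 0.16). In hypoxia DDX60 held 1.64, 1.73 and 1.96 CPM in clone A, 6.12, 7.02 and 6.04 CPM in clone B, and 27.6, 28.2 and 29.1 CPM in parental cells (log2 -3.98 ± 0.18, adjusted p = 3.5e-15, and -2.14 ± 0.16, adjusted p = 5.51e-11, edgeR quasi-likelihood test). The parental libraries were thus at their highest in hypoxia and the clone A libraries were not. In TIFM DDX60 held 1.07, 0.458 and 0.494 CPM in clone A, 4.76, 4.28 and 3.78 CPM in clone B, and 13.3, 10.7 and 14.7 CPM in parental cells (log2 -4.19 ± 0.21 and -1.59 ± 0.17). Its neighbour DDX60L averaged 2.99 ± 0.433 CPM (SD, n = 3) in clone A, 8.56 ± 0.774 in clone B and 15.5 ± 2.21 in parental cells in normoxia, with log2 fold changes of -2.37 ± 0.20 and -0.86 ± 0.19. How reads matching both neighbours were counted is not given in the sources used here.

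**Figure D3:**
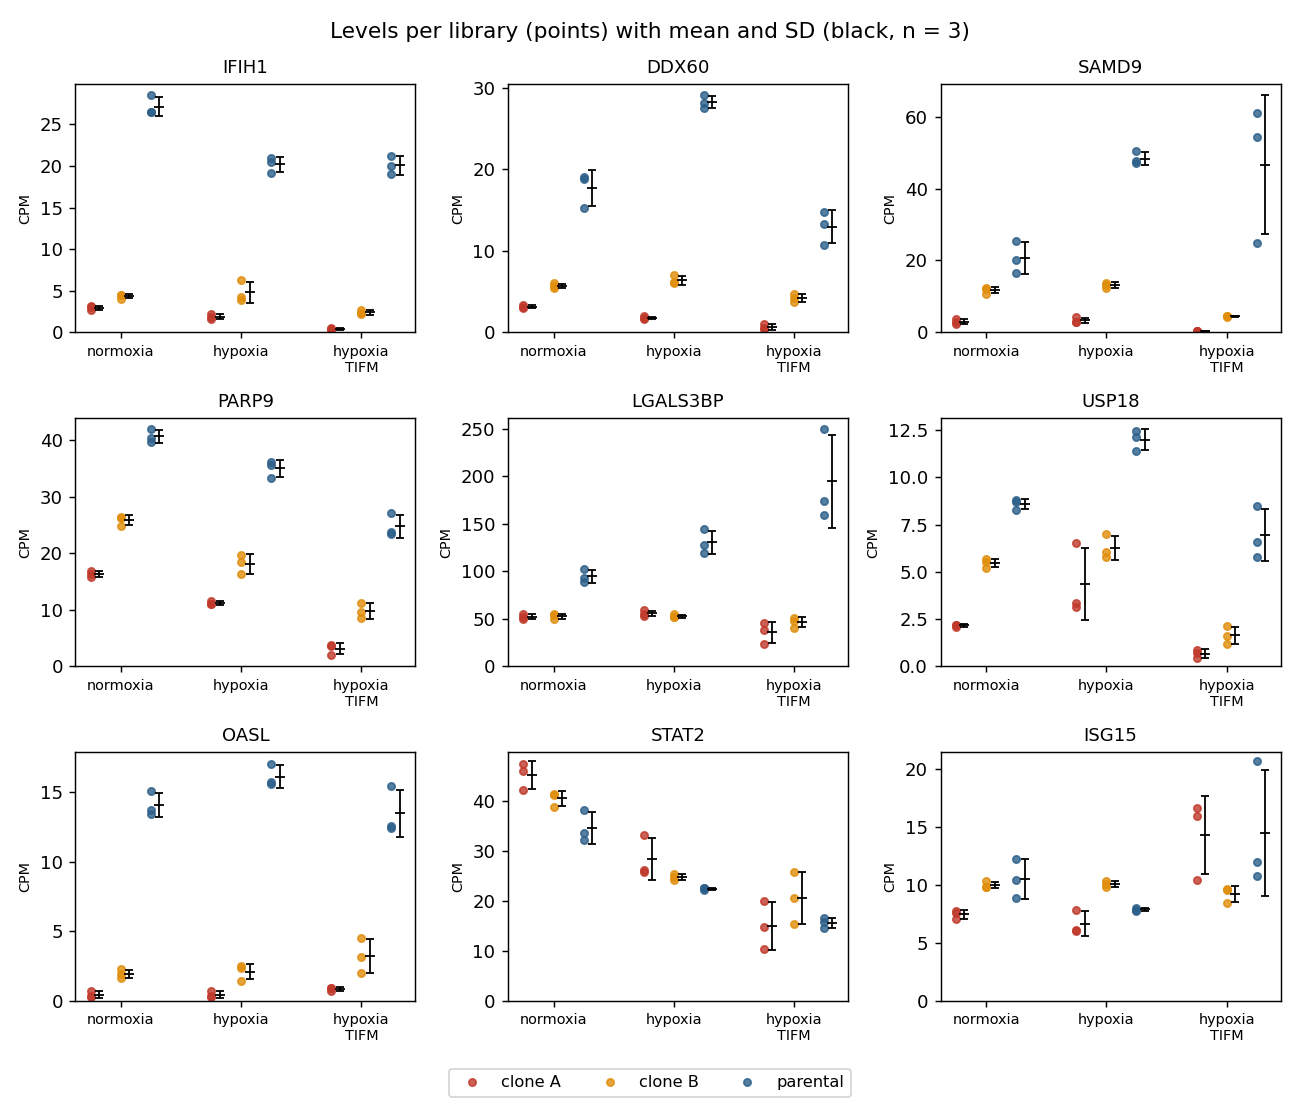
CPM (vertical axes, linear, from 0) of 9 of the genes in every library, by condition; within a condition clone A stands left of clone B and clone B left of parental cells, and black bars give the mean and SD of 3 libraries. IFIH1, DDX60, SAMD9, PARP9, LGALS3BP and OASL show no overlap between clone and parental libraries, whereas STAT2 and ISG15 do not separate parental cells from the clones in that way.

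The OAS genes encode enzymes that, on binding double-stranded RNA, make short chains of oligoadenylate; OASL, on chromosome 12 (121019111 to 121039242, minus strand), lacks that enzyme activity and assists RNA sensing instead. All 4 were lower in clone A in each condition. OASL had 0.293, 0.706 and 0.311 CPM in clone A, 1.66, 2.24 and 1.94 CPM in clone B, and 13.7, 15.1 and 13.4 CPM in parental cells in normoxia. The log2 fold changes were -5.01 ± 0.32 (adjusted p = 1.96e-12, edgeR quasi-likelihood test) and -2.85 ± 0.26 (adjusted p = 2.48e-09). In hypoxia OASL had 0.225, 0.347 and 0.685 CPM in clone A, 1.44, 2.32 and 2.51 CPM in clone B, and 17.1, 15.6 and 15.7 CPM in parental cells. In TIFM OASL had 0.669, 0.916 and 0.938 CPM in clone A, 2, 4.47 and 3.17 CPM in clone B, and 12.6, 15.4 and 12.4 CPM in parental cells. Parental libraries stood above every clone library in all 3 conditions, with log2 fold changes of -5.24 ± 0.32 and -2.94 ± 0.26 in hypoxia and -4.02 ± 0.30 and -2.07 ± 0.25 in TIFM.

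OAS3 differed by far less. In normoxia it had 38, 36.8 and 31.9 CPM in clone A, 46.8, 50.2 and 47.9 CPM in clone B, and 57.8, 61.4 and 55.2 CPM in parental cells (log2 -0.71 ± 0.10 and -0.27 ± 0.09). The clone B call in normoxia (adjusted p = 0.0384, edgeR quasi-likelihood test) did not hold when any 1 of the clone B libraries was left out, or parental replicate 1 or 2, at an adjusted p of up to 0.138. In hypoxia OAS3 had 24.5, 26.5 and 24 CPM in clone A, 38.2, 36.3 and 32.7 CPM in clone B, and 38.6, 38.5 and 40.1 CPM in parental cells, and the clone B difference did not pass (-0.13 ± 0.10). In TIFM OAS3 had 22.8, 25.2 and 23.9 CPM in clone A, 28.7, 29.7 and 28.2 CPM in clone B, and 41.6, 34.5 and 42.1 CPM in parental cells (log2 -0.72 ± 0.10 and -0.45 ± 0.10). OAS1 split the clones in normoxia, where it averaged 0.461 ± 0.159 CPM in clone A, 3.38 ± 0.27 in clone B and 2.83 ± 0.743 in parental cells. Its log2 fold change was -2.61 ± 0.32 in clone A, and 0.26 ± 0.26 in clone B did not pass the test. In TIFM OAS1 was called lower in clone B too. That call was lost without clone B TIFM replicate 1 or parental TIFM replicate 2 (adjusted p up to 0.0991, edgeR quasi-likelihood test). OAS2 averaged 0.174 ± 0.0209 CPM in clone A, 1.5 ± 0.182 in clone B and 4.08 ± 0.55 in parental cells in normoxia (log2 -4.52 ± 0.38 and -1.44 ± 0.29).

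Of the IFI genes, IFI6 and IFI44 were lower in the clones, while IFI27 was called lower in no clone comparison and IFI35 in hypoxia in clone A and in TIFM in clone B. IFI6, a membrane protein of mitochondria and the endoplasmic reticulum, had 2.21, 2.18 and 2.6 CPM in clone A, 4.56, 5.78 and 3.85 CPM in clone B, and 7.25, 7.56 and 6.79 CPM in parental cells in normoxia (log2 -1.62 ± 0.19 and -0.61 ± 0.18). The clone B call was lost without clone B replicate 1 or 3 or parental replicate 2 (adjusted p up to 0.103). In hypoxia IFI6 had 2.64, 2.05 and 1.64 CPM in clone A, 2.62, 2.86 and 2.87 CPM in clone B, and 7.73, 7.34 and 7.03 CPM in parental cells (log2 -1.81 ± 0.20 and -1.40 ± 0.19). In TIFM IFI6 had 0.602, 0.874 and 1.23 CPM in clone A, 1.3, 1.92 and 1.66 CPM in clone B, and 6.53, 7.87 and 6.19 CPM in parental cells (log2 -2.96 ± 0.23 and -2.07 ± 0.20). Parental libraries stayed between 6.19 and 7.87 CPM over the 3 conditions, and the clone libraries were lowest in TIFM.

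IFI44, a cytoplasmic protein with antiviral activity, was almost without counts in clone A. In normoxia clone A held 2 counts over its 3 libraries and parental cells 118, a ratio of 0.0174 (95% exact counting interval 0.00209 to 0.0644). The ratio was 0.00936 in hypoxia (2 against 255 counts) and 0.0254 in TIFM (3 against 141 counts); such intervals cover counting error only. In clone B IFI44 had 0, 0.162 and 0.0273 CPM, against 1.3, 0.703 and 1.57 CPM in parental cells in normoxia (log2 -4.14 ± 0.67, adjusted p = 2.64e-05, edgeR quasi-likelihood test). In clone B in hypoxia it had 0.353, 0.565 and 0.331 CPM, against 2.26, 2.09 and 2.31 CPM in parental cells (log2 -2.41 ± 0.50), and in TIFM 0.222, 0.0331 and 0.453 CPM against 2.04, 1.17 and 1.48 CPM (log2 -2.75 ± 0.56). IFI27, another mitochondrial membrane protein, was the exception in hypoxia, at 1.32, 1.23 and 1.76 CPM in clone A against 0.778, 0.729 and 0.45 CPM in parental cells (log2 1.13 ± 0.33, adjusted p = 0.00685).

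IFIT proteins bind the ends of foreign RNA. IFIT5 was the sole IFIT gene with enough counts, and it was lower in clone A but not in clone B. In normoxia IFIT5 had 18.3, 20 and 19.2 CPM in clone A, 28.3, 30.9 and 29.8 CPM in clone B, and 34.3, 30.6 and 34 CPM in parental cells (log2 -0.78 ± 0.21 and -0.15 ± 0.21). In hypoxia IFIT5 had 11.3, 12.8 and 10.9 CPM in clone A, 31.3, 26 and 23.9 CPM in clone B, and 23, 22.5 and 23.4 CPM in parental cells (log2 -0.98 ± 0.21 and 0.24 ± 0.21). In TIFM IFIT5 had 9.87, 5.21 and 3.56 CPM in clone A, 26.1, 19.1 and 16.2 CPM in clone B, and 26.1, 20 and 18.8 CPM in parental cells (log2 -1.78 ± 0.22, adjusted p = 1.88e-07, and -0.08 ± 0.21, adjusted p = 0.787, edgeR quasi-likelihood test). Clone B and parental libraries overlapped in TIFM, and in normoxia clone B replicate 2 stood above parental replicate 2.

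In the ISG15 system, a ubiquitin-like protein (ISG15) is joined to other proteins by HERC5 and removed by USP18, which also damps receptor signalling. USP18 had 2.21, 2.21 and 2.09 CPM in clone A, 5.21, 5.51 and 5.66 CPM in clone B, and 8.27, 8.77 and 8.68 CPM in parental cells in normoxia (log2 -1.98 ± 0.23 and -0.65 ± 0.21). In hypoxia USP18 had 6.54, 3.15 and 3.33 CPM in clone A, 5.8, 6.04 and 6.98 CPM in clone B, and 12.2, 12.4 and 11.4 CPM in parental cells (log2 -1.47 ± 0.22 and -0.93 ± 0.21). Clone A replicate 1 stood apart in hypoxia, at about the level of clone B. In TIFM USP18 had 0.435, 0.708 and 0.889 CPM in clone A, 1.18, 1.62 and 2.11 CPM in clone B, and 6.59, 5.77 and 8.49 CPM in parental cells (log2 -3.39 ± 0.28, adjusted p = 1.22e-10, and -2.09 ± 0.24, adjusted p = 8.85e-08, edgeR quasi-likelihood test). The clone B call in normoxia (adjusted p = 0.023) did not hold when any 1 of the clone B libraries was left out, or parental replicate 2 or 3.

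HERC5, the ligase, followed the same order at smaller distances. It had 6.73, 6.9 and 5.53 CPM in clone A, 9.52, 9.58 and 9.4 CPM in clone B, and 13.1, 13.3 and 12.4 CPM in parental cells in normoxia (log2 -1.02 ± 0.17, and -0.44 ± 0.17, which did not pass). In hypoxia it had 4.19, 4.95 and 5.36 CPM in clone A, 7.21, 7.97 and 9.57 CPM in clone B, and 12.4, 11.5 and 12.1 CPM in parental cells (log2 -1.31 ± 0.17 and -0.54 ± 0.17). Every library kept to that order of genotypes in both conditions. In TIFM it had 2.58, 3.25 and 1.38 CPM in clone A, 6.92, 7.09 and 6.04 CPM in clone B, and 8.59, 8.43 and 10.3 CPM in parental cells (log2 -1.90 ± 0.19 and -0.44 ± 0.17). The clone B calls were lost without clone B replicate 1 in hypoxia (adjusted p = 0.0715), and in TIFM without any of the clone B libraries or parental replicate 3 (adjusted p up to 0.142). ISG15 itself had 7.54, 7.76 and 7 CPM in clone A, 10.3, 9.83 and 9.78 CPM in clone B, and 10.4, 12.3 and 8.83 CPM in parental cells in normoxia. Its clone A difference (log2 -0.50 ± 0.19, adjusted p = 0.0497) did not hold when any 1 of the clone A libraries was left out, or parental replicate 1 or 2 (adjusted p up to 0.203), and clone B and parental libraries overlapped.

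MX1 and MX2 are dynamin-like GTPases that trap viral particles, and only MX1 was broadly lower. MX1 had 1.43, 1.38 and 1.02 CPM in clone A, 2.84, 3.21 and 2.35 CPM in clone B, and 3.62, 4.08 and 4.6 CPM in parental cells in normoxia (log2 -1.69 ± 0.30, and -0.55 ± 0.28, which did not pass). In hypoxia MX1 had 2.77, 1.2 and 1.76 CPM in clone A, 2.8, 4.19 and 4.25 CPM in clone B, and 5.4, 5.35 and 6.27 CPM in parental cells (log2 -1.57 ± 0.28, and -0.60 ± 0.27, which did not pass). All parental libraries were above all clone libraries in both conditions. In TIFM MX1 had 0.401, 0.416 and 1.28 CPM in clone A, 1.14, 1.76 and 2.15 CPM in clone B, and 4.13, 4.34 and 3.82 CPM in parental cells (log2 -2.61 ± 0.34 and -1.29 ± 0.30). MX2 had 92, 91 and 87 CPM in clone A, 83.2, 79.8 and 79.2 CPM in clone B, and 72.2, 77.1 and 69.9 CPM in parental cells in normoxia. It was higher in clone A there (log2 0.30 ± 0.09, adjusted p = 0.0096, edgeR quasi-likelihood test; 0.0513 without parental replicate 3) and lower in clone A in hypoxia (-0.23 ± 0.09, adjusted p = 0.0415). The hypoxia call was lost without clone A replicate 1 or 3 or any parental library.

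Of the 4 transcription factors of the list, STAT2 and IRF7 had enough counts to be tested. STAT2, which acts with IRF9 on the ISRE, had 47.5, 46 and 42.2 CPM in clone A, 41.2, 41.4 and 38.8 CPM in clone B, and 33.5, 38.1 and 32.1 CPM in parental cells in normoxia. In hypoxia STAT2 had 33.3, 25.7 and 26.1 CPM in clone A, 24.1, 25.3 and 24.8 CPM in clone B, and 22.5, 22.2 and 22.5 CPM in parental cells. All clone libraries were above all parental ones in these conditions, but no difference passed the test (log2 0.39 ± 0.17 and 0.23 ± 0.16 in normoxia, 0.34 ± 0.17 and 0.14 ± 0.17 in hypoxia). In TIFM STAT2 had 14.7, 20 and 10.3 CPM in clone A, 25.8, 20.5 and 15.4 CPM in clone B, and 15.8, 14.5 and 16.5 CPM in parental cells (log2 -0.06 ± 0.17 and 0.40 ± 0.17). IRF7, the factor that amplifies interferon production, averaged 4.16 ± 0.404 CPM in clone A, 4.87 ± 0.582 in clone B and 4.08 ± 1.03 in parental cells in normoxia. It was called once against parental cells, lower in clone A in hypoxia (log2 -0.71 ± 0.25, adjusted p = 0.0272, edgeR quasi-likelihood test), and that call was lost without clone A or parental replicate 2 or 3.

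The restriction factors SAMD9 and SAMD9L, which block poxvirus growth, were lower in both clones in all 3 conditions. SAMD9 lies on chromosome 7 (93099513 to 93118023, minus strand). In normoxia SAMD9 had 2.31, 3.66 and 2.88 CPM in clone A, 10.7, 12.2 and 12.4 CPM in clone B, and 20, 16.6 and 25.4 CPM in parental cells (log2 -2.81 ± 0.24 and -0.81 ± 0.22; the clone B call was lost without parental replicate 3, adjusted p = 0.0522). In hypoxia SAMD9 had 4.22, 2.97 and 2.89 CPM in clone A, 12.2, 13.9 and 13.2 CPM in clone B, and 47.6, 50.3 and 47 CPM in parental cells (log2 -3.85 ± 0.25 and -1.88 ± 0.22). In TIFM SAMD9 had 0.368, 0.375 and 0.247 CPM in clone A, 4.61, 4.28 and 4.61 CPM in clone B, and 54.2, 24.7 and 60.9 CPM in parental cells. In clone A that was the lowest fitted fold change among the 33 genes against parental cells, at log2 -7.10 ± 0.33 (adjusted p = 3.48e-15, edgeR quasi-likelihood test). In clone B it was -3.37 ± 0.24 (adjusted p = 1.69e-11, same test), and BST2 was lower still there, at -4.20. Parental replicate 2 of SAMD9 was well below the other parental libraries in TIFM.

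SAMD9L was far scarcer in counts. It had 0.13, 0.481 and 0.141 CPM in clone A, 0.394, 0.324 and 1.01 CPM in clone B, and 2.32, 1.91 and 2.78 CPM in parental cells in normoxia (log2 -3.22 ± 0.43 and -2.01 ± 0.38). In hypoxia SAMD9L had 0.193, 0.189 and 0.0893 CPM in clone A, 1.15, 0.833 and 0.607 CPM in clone B, and 2.74, 2.71 and 2.56 CPM in parental cells (log2 -4.06 ± 0.46 and -1.63 ± 0.37). In TIFM SAMD9L had 0.0334, 0.0833 and 0.0494 CPM in clone A, 0.635, 0.365 and 0.227 CPM in clone B, and 2.01, 1.49 and 1.52 CPM in parental cells (log2 -4.86 ± 0.60 and -2.01 ± 0.42). BST2 (tetherin), which holds budding virus at the cell surface, stood at similar levels in the clones: it averaged 0.692 ± 0.0645 CPM in clone A, 0.554 ± 0.338 in clone B and 3.97 ± 0.572 in parental cells in normoxia. The log2 fold changes of BST2 were -2.52 ± 0.33 and -2.84 ± 0.33 in normoxia, -3.75 ± 0.38 and -3.85 ± 0.38 in hypoxia, and -4.32 ± 0.39 and -4.20 ± 0.38 in TIFM. RSAD2 (viperin), an antiviral enzyme, had 3 counts in clone A against 44 in parental cells in normoxia, a ratio of 0.0702. CMPK2, a mitochondrial nucleotide kinase beside RSAD2, averaged 0.0917 ± 0.0524 CPM in clone A, 0.356 ± 0.092 in clone B and 1.07 ± 0.178 in parental cells in normoxia (log2 -3.48 ± 0.54 and -1.58 ± 0.44).

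PARP9 and DTX3L act as a complex that marks histones and viral proteins, and PARP14 is a related ADP-ribosyl transferase. PARP9 had 16.8, 16.3 and 15.9 CPM in clone A, 26.3, 26.5 and 24.9 CPM in clone B, and 42, 39.7 and 40.5 CPM in parental cells in normoxia (log2 -1.32 ± 0.14 and -0.65 ± 0.13). In hypoxia PARP9 had 11.6, 11.1 and 11 CPM in clone A, 16.3, 19.7 and 18.4 CPM in clone B, and 36.2, 35.5 and 33.4 CPM in parental cells (log2 -1.64 ± 0.14 and -0.95 ± 0.13). In TIFM PARP9 had 3.58, 3.83 and 1.98 CPM in clone A, 11.3, 9.54 and 8.53 CPM in clone B, and 23.9, 23.4 and 27.1 CPM in parental cells (log2 -2.96 ± 0.16, adjusted p = 2.91e-14, and -1.34 ± 0.14, adjusted p = 1.75e-08, edgeR quasi-likelihood test). The 3 genotypes did not overlap in any condition.

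DTX3L had 45.1, 48.5 and 46.5 CPM in clone A, 61, 61.6 and 59.5 CPM in clone B, and 89.7, 89.7 and 88.9 CPM in parental cells in normoxia (log2 -0.94 ± 0.20 and -0.56 ± 0.20). The clone B call (adjusted p = 0.0347, edgeR quasi-likelihood test) did not hold when any 1 of the 6 libraries compared was left out, at an adjusted p of up to 0.0929. In hypoxia DTX3L had 25.7, 29 and 23.5 CPM in clone A, 36.3, 37.4 and 33 CPM in clone B, and 59.6, 57.1 and 58.4 CPM in parental cells (log2 -1.16 ± 0.20 and -0.71 ± 0.20). In TIFM DTX3L had 21.9, 16.8 and 8.1 CPM in clone A, 37.1, 32.6 and 21.5 CPM in clone B, and 66.2, 60.9 and 58.7 CPM in parental cells (log2 -1.98 ± 0.21 and -1.02 ± 0.20). As with PARP9, parental libraries were above all clone libraries in each condition. PARP14 averaged 65.9 ± 3.55 CPM in clone A, 84.3 ± 2.85 in clone B and 130 ± 8.73 in parental cells in normoxia, with log2 fold changes of -0.98 ± 0.24 and -0.62 ± 0.23, the clone B one not passing (adjusted p = 0.0514).

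LGALS3BP is a secreted glycoprotein, and its clones lay close together in normoxia and hypoxia, as those of BST2 did. It had 54.8, 52.2 and 49.6 CPM in clone A, 55.1, 53.8 and 49.7 CPM in clone B, and 93.5, 102 and 88.9 CPM in parental cells in normoxia (log2 -0.86 ± 0.16 and -0.84 ± 0.16). In hypoxia it had 58.9, 55.5 and 52.8 CPM in clone A, 51.8, 54.8 and 51.5 CPM in clone B, and 120, 127 and 144 CPM in parental cells (log2 -1.23 ± 0.17 and -1.31 ± 0.17). In TIFM it had 23.7, 38.1 and 45.6 CPM in clone A, 40.6, 51.4 and 47.5 CPM in clone B, and 174, 250 and 159 CPM in parental cells (log2 -2.45 ± 0.17, adjusted p = 8.05e-12, and -2.06 ± 0.17, adjusted p = 2.45e-10, edgeR quasi-likelihood test). The parental level climbed over the series normoxia, hypoxia and TIFM, and the clone levels did not.

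RTP4, a chaperone of receptors with antiviral activity, had 0.163, 0.192 and 0.621 CPM in clone A, 0.338, 0.837 and 0.464 CPM in clone B, and 1.12, 1.46 and 1.02 CPM in parental cells in normoxia (log2 -1.84 ± 0.43 and -1.13 ± 0.40). The clone B call (adjusted p = 0.039, edgeR quasi-likelihood test) was lost without clone B replicate 1 or 3 or any parental library. In hypoxia RTP4 had 0.161, 0.0946 and 0.208 CPM in clone A, 0.53, 0.714 and 0.469 CPM in clone B, and 1.68, 1.76 and 1.69 CPM in parental cells (log2 -3.43 ± 0.48 and -1.58 ± 0.39). In TIFM RTP4 had 0.167, 0.167 and 0 CPM in clone A, 0.508, 0.497 and 0.264 CPM in clone B, and 1.38, 1.71 and 1.19 CPM in parental cells (log2 -3.53 ± 0.53 and -1.73 ± 0.42). No parental library was reached by a clone library. EPSTI1, a gene named for the contact of epithelium and stroma, had 0 counts in clone A in normoxia against 25 in parental cells, at least 8.09-fold lower against a floor of 3 counts over the group, and its clone B difference did not pass (log2 0.39 ± 0.51). XAF1, an antagonist of the apoptosis inhibitor XIAP, was lower in clone A in normoxia and hypoxia (log2 -3.03 ± 0.78 and -3.16 ± 0.89).

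**Figure D4:**
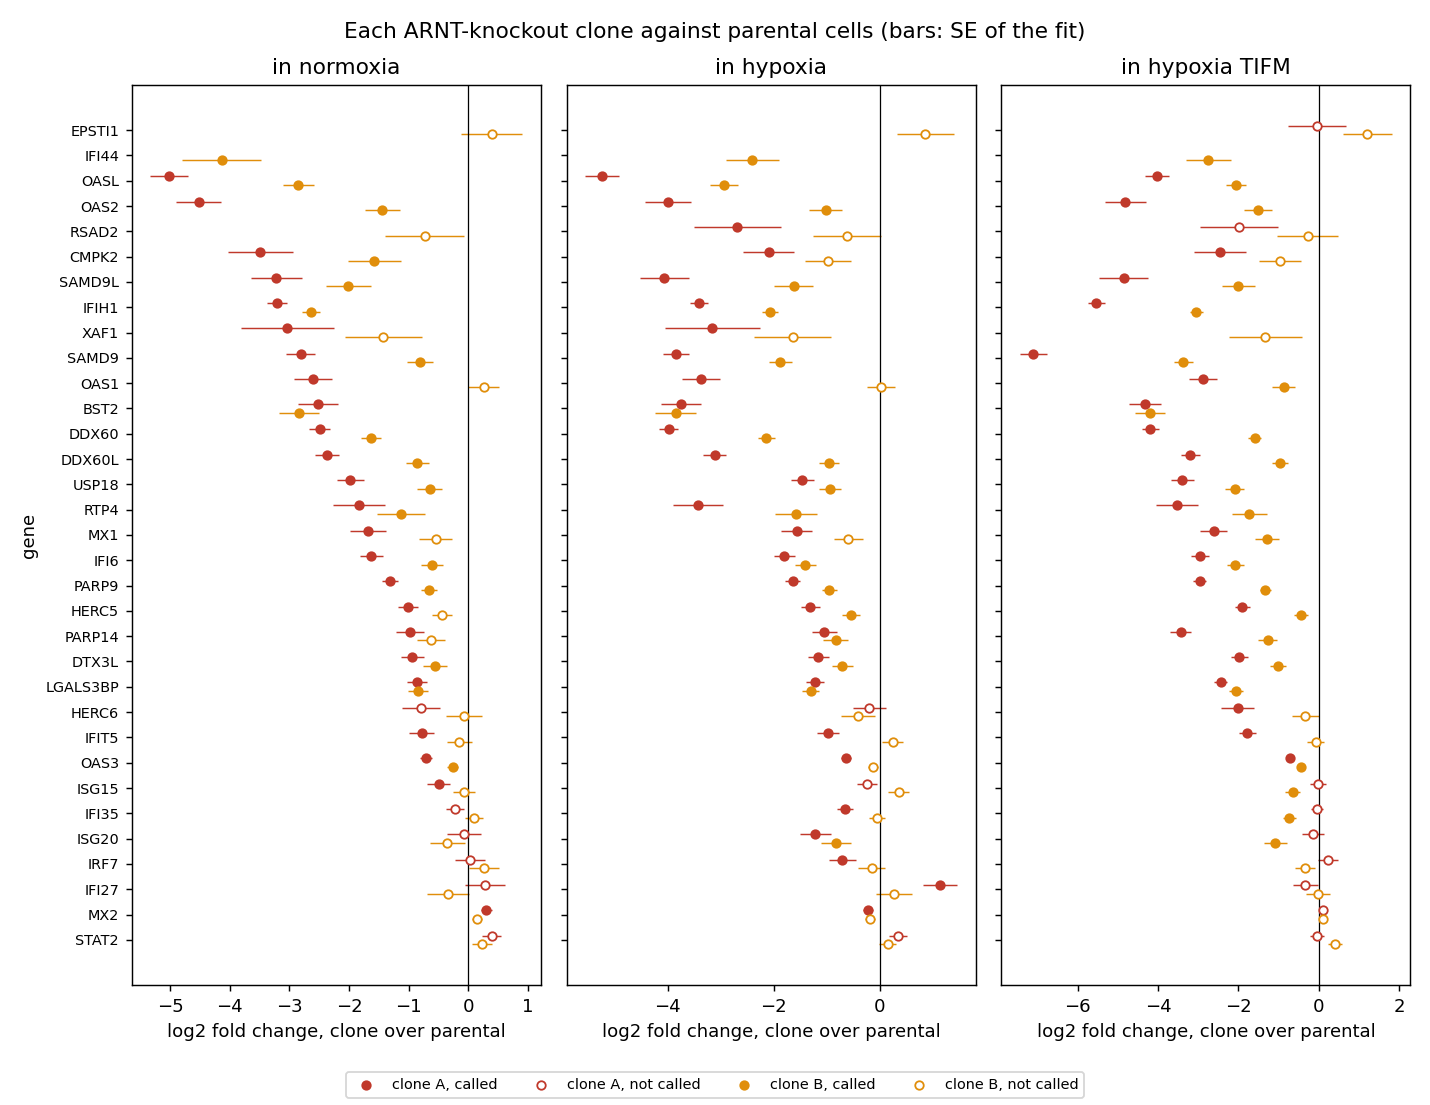
Log2 fold change of each clone over parental cells (horizontal axes; red clone A, orange clone B; bars are the SE of the fit; filled points passed the test) for the 33 tested genes in 3 conditions, leaving out points with 3 or fewer counts in either group. Most red points stand left of the orange ones, and BST2 and LGALS3BP have both together.

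Genes with and without the ISRE-like match were both found among those lower in the clones. Of the 28 tested genes with a promoter sequence, 20 held an ISRE-like match; 18 of these were lower in clone A in normoxia and 11 in clone B, with median log2 fold changes of -1.66 and -0.64. The 8 genes without a match had 5 lower in clone A and 3 in clone B, with medians of -1.77 and -0.31. No test was made of this split.

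The clones were also set against each other. In clone B against clone A, 17 genes were higher and none lower in normoxia (21.5% of all genes called), 18 higher and none lower in hypoxia (25.1%), and 21 higher and 3 lower in TIFM (56.1%). The median log2 fold changes were 0.71, 0.77 and 1.46. OAS1 and OAS2 stood furthest apart of the OAS genes in normoxia, at 2.86 ± 0.31 and 3.08 ± 0.39, whereas LGALS3BP (0.02 ± 0.16) and BST2 (-0.32 ± 0.37) did not pass. The 3 genes lower in clone B in TIFM were ISG15 (-0.63 ± 0.19), ISG20 (-0.95 ± 0.29) and IFI35 (-0.69 ± 0.16); the ISG15 and ISG20 calls were lost without clone A replicate 3 (adjusted p = 0.0516 and 0.122, edgeR quasi-likelihood test). With only the 6 compared libraries in the fit, none of these 3 passed (adjusted p = 0.0841 for ISG15, 0.099 for ISG20 and 0.0861 for IFI35, same test). That fit called 12 genes in place of 24. It filters genes anew, and some of the 24 were not tested in it.

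Against normoxia in regular medium, 1 gene rose and 11 fell in clone A in hypoxia (22.2% of all genes called, with 10.4% higher and 11.8% lower), 1 rose and 6 fell in clone B (9.3%, with 4.46% of all genes higher and 4.84% lower), and 3 rose and 5 fell in parental cells (30.2%, with 15.4% higher and 14.9% lower). The median log2 fold changes were -0.51, -0.05 and -0.11, against -0.0054, -0.0147 and -0.0022 over all genes. OAS3 fell in all 3 genotypes (-0.51 ± 0.10, -0.44 ± 0.10 and -0.57 ± 0.10), and so did STAT2 (-0.67 ± 0.17, -0.71 ± 0.17 and -0.63 ± 0.17) and DTX3L (-0.84 ± 0.20, -0.77 ± 0.20 and -0.62 ± 0.20). The DTX3L calls were lost in clone B without hypoxia replicate 3 or normoxia replicate 1 or 2 (adjusted p up to 0.077), and in parental cells without hypoxia replicate 2 or 3 (adjusted p up to 0.0579, edgeR quasi-likelihood test).

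In parental cells the genes that rose in hypoxia were SAMD9 (1.23 ± 0.21, adjusted p = 0.000105, edgeR quasi-likelihood test), DDX60 (0.68 ± 0.15) and LGALS3BP (0.46 ± 0.16). The LGALS3BP call was lost without parental hypoxia replicate 2 or 3 or parental normoxia replicate 1 or 3 (adjusted p up to 0.134). In the clones SAMD9 did not pass (0.18 ± 0.25 for A, 0.16 ± 0.22 for B). DDX60 fell in clone A (-0.81 ± 0.19, adjusted p = 0.00301). The gene that rose in clone A was USP18 (1.00 ± 0.23, adjusted p = 0.0034; 0.0608 without clone A hypoxia replicate 1), and in clone B it was IFI44 (2.63 ± 0.74, from 43 counts in hypoxia and 7 in normoxia). The IFI44 call was lost without clone B hypoxia replicate 2 or 3 or clone B normoxia replicate 1 or 3 (adjusted p up to 0.119). OAS2 fell most in parental cells, by 1.25 on the log2 scale (SE 0.29), and DDX60L and BST2 fell in clone A (-1.13 ± 0.23 and -1.46 ± 0.43); the BST2 call was lost without clone A hypoxia replicate 1 or 3 or clone A normoxia replicate 1.

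In TIFM, more of the genes fell in the clones than in parental cells, by count. Against hypoxia in regular medium, 5 rose and 15 fell in clone A (67.2% of all genes called), 1 rose and 13 fell in clone B (53.7%), and 3 rose and 5 fell in parental cells (42.2%). The median log2 fold changes were -0.70, -0.44 and -0.25. Those counts of called genes were below the share called among all genes in each genotype, while the share that fell was 34.2%, 27.9% and 20.4% of all genes.

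SAMD9 fell by 3.30 ± 0.37 on the log2 scale in clone A (adjusted p = 1.69e-08, edgeR quasi-likelihood test) and by 1.54 ± 0.23 in clone B (adjusted p = 4.68e-06), and had -0.05 ± 0.21 in parental cells. USP18 fell in all 3 genotypes, with -2.72 ± 0.28 in clone A, -1.95 ± 0.24 in clone B and -0.79 ± 0.21 in parental cells. IFIH1 fell in the clones (-2.14 ± 0.24 and -0.99 ± 0.17) and had -0.01 ± 0.14 in parental cells. PARP14 fell in clone A by 2.58 ± 0.26; its hypoxia libraries there were 112, 46.1 and 51.6 CPM, replicate 1 standing apart, and its TIFM libraries 14.8, 12.2 and 7.75 CPM.

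Some genes went the other way in TIFM. ISG15 rose in clone A (1.10 ± 0.19, adjusted p = 2.1e-05, edgeR quasi-likelihood test) and in parental cells (0.88 ± 0.19, adjusted p = 0.000623), and had -0.13 ± 0.19 in clone B. Its TIFM libraries held 10.4, 15.9 and 16.6 CPM in clone A, 8.42, 9.58 and 9.63 CPM in clone B, and 11.9, 20.7 and 10.8 CPM in parental cells, parental replicate 2 being the highest. ISG20, an exonuclease, rose in clone A (1.70 ± 0.30), as did IRF7 (1.26 ± 0.26). OASL and EPSTI1 rose there too (0.96 ± 0.40, adjusted p = 0.0359, and, from 9 against 2 counts, a ratio of 5.86). The OASL call was lost without clone A hypoxia replicate 1 or 2 or clone A TIFM replicate 2 or 3, and the EPSTI1 call without any clone A hypoxia library or clone A TIFM replicate 1. IFI27 rose in clone B (1.18 ± 0.32) and in parental cells (1.46 ± 0.32), and LGALS3BP in parental cells (0.58 ± 0.16, adjusted p = 0.00598; 0.0826 without parental TIFM replicate 2).

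**Figure D5:**
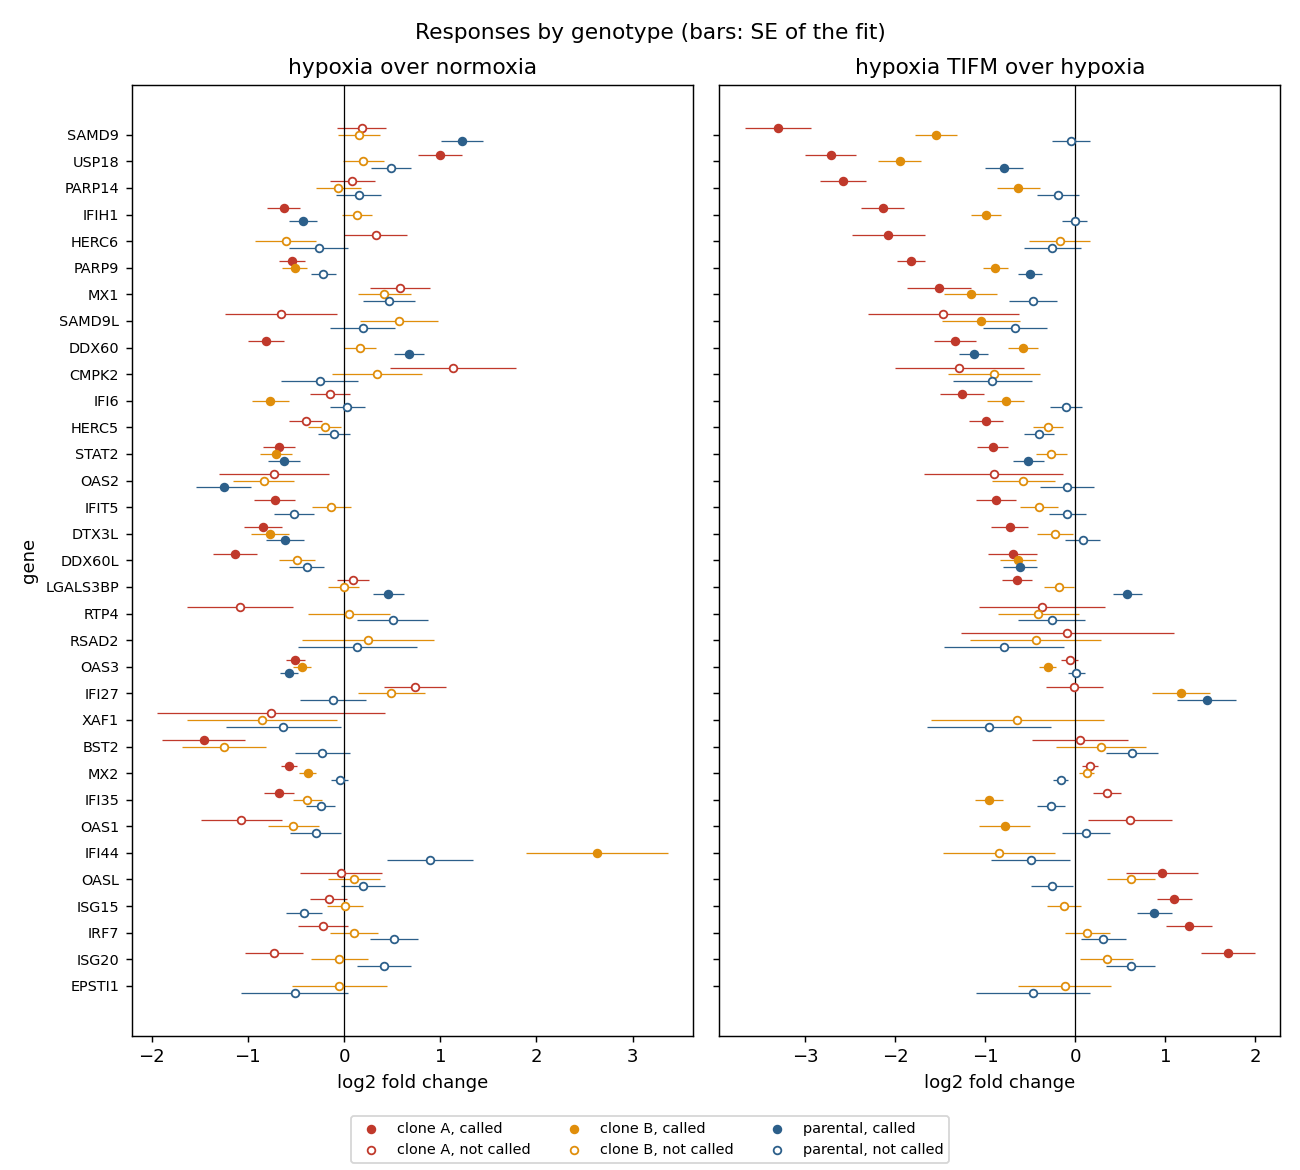
Log2 fold change of hypoxia over normoxia (left) and of TIFM over regular medium in hypoxia (right) for the 33 tested genes, with red for clone A, orange for clone B and blue for parental cells, bars for the SE of the fit, filled points for calls, and points with 3 or fewer counts in either group left out. In the right panel SAMD9, IFIH1 and PARP14 have clone A furthest left, clone B between and parental cells near 0.

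Whether a clone responded differently from parental cells was tested as a difference of responses. For hypoxia, 2 genes differed in clone A, both with a lower response (6.23% of all genes called, 4.04% with a lower response) and 1 in clone B (4.73%). Both counts of called genes are no more than the share called among all genes. For TIFM, 16 genes differed in clone A, 5 with a higher and 11 with a lower response (38.9%), and 6 differed in clone B, all with a lower response (10.4%). IFIH1, SAMD9, USP18 and LGALS3BP were lower in their TIFM response in clone A (-2.13 ± 0.28, -3.25 ± 0.43, -1.93 ± 0.36 and -1.22 ± 0.23) and in clone B (-0.98 ± 0.22, -1.49 ± 0.31, -1.16 ± 0.32 and -0.76 ± 0.23). The clone B call of LGALS3BP (adjusted p = 0.0363, edgeR quasi-likelihood test) did not hold when any 1 of 8 of the 12 libraries was left out, and that of USP18 (adjusted p = 0.0196) without clone B hypoxia replicate 3, clone B TIFM replicate 1 or parental TIFM replicate 3. Both clones are set against the same parental libraries here too.

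The interferons themselves were nearly without reads. Of 21 interferon ligand genes none had enough counts to be tested, and 9 had any, 262 counts in all over the 27 libraries. IFNE, the epithelial type I interferon, held 125 of them, IFNL1 41, IFNL3 39 and IFNB1 4. The IFNA genes are near-identical copies, and how reads matching several of them were counted is not given in the sources used here. Of 6 receptor genes 5 were tested, and IFNAR2 was listed at 0. IFNAR1, a chain of the type I receptor, averaged 66.7 CPM in clone A, 63.7 CPM in clone B and 61.4 CPM in parental cells in normoxia and was called in no clone comparison (log2 0.12 ± 0.11 and 0.05 ± 0.11 in normoxia).

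In the signalling chain behind the receptor, 12 of 13 genes were tested, with SOCS1 listed at 0. In normoxia 2 were higher and 1 lower in clone A (31.6% of all genes called), and 2 higher and 1 lower in clone B (26.5%), which is no more than the share among all genes. SOCS3, a feedback inhibitor of JAK signalling, was higher in each clone in each condition: in normoxia it had 106, 99.4 and 98.4 CPM in clone A, 86.4, 89.3 and 82.2 CPM in clone B, and 33.1, 41.1 and 30.5 CPM in parental cells (log2 1.53 ± 0.19, adjusted p = 4.61e-07, and 1.30 ± 0.19, adjusted p = 6.07e-06, edgeR quasi-likelihood test).

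Of 22 genes of nucleic acid sensing 19 were tested. In clone A against parental cells 1 was higher and 5 lower in normoxia, where 31.6% of all genes were called and 15.8% were lower. In clone B 1 was higher and 4 lower (26.5% called, 13.3% lower). The counts of called genes in normoxia were near the share among all genes. In hypoxia and TIFM 7 and 10 were lower in clone A, and 7 and 8 in clone B. Higher were 1 and 4 in clone A, and 2 and 2 in clone B. Of all genes 20.9% and 30.7% were then lower in clone A, and 19% and 25.4% in clone B. TMEM173 (STING), the adaptor that relays the cGAS signal, had 1.95, 2.5 and 1.5 CPM in clone A, 4.56, 4.72 and 3.39 CPM in clone B, and 10.3, 11.9 and 9.23 CPM in parental cells in normoxia (log2 -2.40 ± 0.23 and -1.31 ± 0.21). DDX58 (RIG-I), the sensor of short viral RNA, averaged 45.7 ± 2.4 CPM in clone A, 48.2 ± 1.67 in clone B and 85.5 ± 6.43 in parental cells in normoxia (log2 -0.90 ± 0.17 and -0.83 ± 0.17).

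A further list of 50 interferon-stimulated genes, outside the 41, had 45 tested. This list too was chosen with earlier results of these data known, so its counts are not an independent check. In clone A 4 were higher and 26 lower in normoxia, 1 higher and 30 lower in hypoxia, and 4 higher and 35 lower in TIFM, where 15.8%, 20.9% and 30.7% of all genes were lower. In clone B the counts were 2 higher and 19 lower, 1 higher and 21 lower, and 2 higher and 33 lower, where 13.3%, 19% and 25.4% of all genes were lower. GBP4, a guanylate-binding GTPase, had 0.065, 0.0642 and 0.254 CPM in clone A, 0.873, 0.648 and 0.71 CPM in clone B, and 6.63, 7.87 and 7.84 CPM in parental cells in normoxia (log2 -5.77 ± 0.45 and -3.32 ± 0.34). The chemokine CCL5 had -5.28 ± 0.35 and -2.96 ± 0.28, and the apolipoprotein APOL1 had -3.33 ± 0.19 and -1.80 ± 0.17 in the same comparisons. In GBP4, CCL5 and APOL1 the fitted level was thus lowest in clone A and highest in parental cells.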

How the data were processed

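The authors deposited raw counts per gene as whole numbers; per the submitters' processing notes HISAT2, featureCounts and GRCh38 were used. Their versions, the annotation release, the strand setting and the treatment of reads with several matches are not given in those sources. Symbols came from GENCODE v29, which named 21409 of 21487 identifiers. All 27 libraries went into 1 edgeR 4.0.16 fit (R 4.3.3) with TMM factors, filterByExpr by group (minimum count 10, minimum total 15; 13943 genes left), 9 group coefficients and robust quasi-likelihood F tests. A call needed a p under 0.05 after Benjamini-Hochberg adjustment over all tested genes, in each of 19 comparisons. DESeq2 1.42.0, RLE factors, no filter, only the libraries compared, a replicate block and leaving out each library were alternatives. Errors of fold changes are SE of the fit. The scripts were tested on simulated data. No 2 libraries of a group agreed within sampling noise. Values in every library are given for the 1 or 2 genes of each role group called in the most comparisons. The 41 genes and the other lists were chosen with earlier results of these data known. Promoters are RefSeq's, GRCh38.p14. Counting intervals are 95% exact binomial. Results of some genes of the other lists are not reported here.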

Additional observations from a re-analysis of the deposited data

Results flagged for a closer look

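The results here are genes whose response to hypoxia or to TIFM differed between a clone and parental cells in edgeR's test of the difference of responses. Values are log2 response of the clone minus log2 response of parental cells. Of all genes, 6.23% and 4.73% were called for hypoxia in clone A and clone B, and 38.9% and 10.4% for TIFM.

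For hypoxia, DDX60 (-1.49) and MX2 (-0.53) differed in clone A, and SAMD9 (-1.07) in clone B. These 2 and 1 of the 33 tested genes are no more than the shares called among all genes. The SAMD9 call rests on all libraries together: it did not hold when any 1 of 11 of the 12 libraries was left out, at an adjusted p of up to 0.117.

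For TIFM in clone A, the response was lower for SAMD9 (-3.25), PARP14 (-2.39), IFIH1 (-2.13), USP18 (-1.93), HERC6 (-1.82), IFI27 (-1.47), PARP9 (-1.32), LGALS3BP (-1.22), IFI6 (-1.15), DTX3L (-0.81) and IFIT5 (-0.80). It was higher for OASL (1.22), ISG20 (1.08), IRF7 (0.95), IFI35 (0.62) and MX2 (0.33). Leaving out a single library was enough to lose some of these calls. Of the 12 libraries, any 1 of 7 did so for OASL and ISG20, any 1 of 8 for IRF7, MX2 and IFIT5, any 1 of 5 for IFI35, and either of 2 for DTX3L. The calls of IFIT5, IFI35, MX2, ISG20, IRF7 and DTX3L were also lost with only the compared libraries in the fit. Clone A in TIFM is the group with the widest spread between libraries (29.2%); the part of that spread in these values was not tested.

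For TIFM in clone B, the response was lower for SAMD9 (-1.49), USP18 (-1.16), ISG15 (-1.004), IFIH1 (-0.98), LGALS3BP (-0.76) and IFI35 (-0.69). The IFI35 call did not hold when any 1 of 10 of the 12 libraries was left out, and the ISG15 call without clone B TIFM replicate 1 or parental TIFM replicate 2 (adjusted p up to 0.074).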

How the results depend on the processing

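None of the 291 calls of single genes changed direction under any alternative, and 228 held whichever compared library was left out, while 63 were lost without at least 1. DESeq2, the replicate block and RLE factors each lost 1 call, no filter lost 7, and fitting only the libraries compared lost 20 of 278. The rest of the 291 calls had no value in that last fit, which filters genes anew. Fitting only those libraries called 17 genes in place of 8 for hypoxia in parental cells. For clone B against clone A in TIFM it called 12 in place of 24. For the differences of the hypoxia response it called 7 in place of 2 in clone A and 7 in place of 1 in clone B. For the difference of the TIFM response of clone A it called 10 in place of 16. That fit estimates the spread from fewer libraries, and the share it called among all genes is not given here. Its counts therefore cannot be set against that share. DESeq2 called 2 in place of 1 for the difference of the hypoxia response of clone B. Leaving out 1 library gave 4 to 7 genes for hypoxia in clone B, 5 to 8 for hypoxia in parental cells, 0 to 1 and 10 to 17 for the differences of the hypoxia response of clone B and the TIFM response of clone A, and 3 to 6 for the TIFM response of clone B. The lowest counts came without clone B hypoxia replicate 3 or clone B normoxia replicate 1 or 2, without parental hypoxia replicate 2, without parental TIFM replicate 1, and without clone B hypoxia replicate 3, clone B TIFM replicate 1 or parental TIFM replicate 2. The counts of the other comparisons stayed within 1.5 times under every alternative run.

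Libraries with the same replicate number did not deviate together (mean r 0.0197 over 108 pairs, 17 above 0.1; 12 of 27 libraries correlated best with their own number), so the numbers were not taken as pairs. With a replicate block, 27 genes were called in clone A and 18 in clone B against parental cells in normoxia, and 9 for hypoxia in parental cells. RLE factors moved the median of all genes by at most 0.0382. Genes averaging under 1 CPM (RSAD2, XAF1, EPSTI1, IFI44, CMPK2, RTP4, HERC6, SAMD9L) rest on few counts.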

Other observations

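Of the 19 tested genes of nucleic acid sensing, 5 rose and 9 fell in clone A in TIFM (67.2% of all genes called), 4 rose and 6 fell in clone B (53.7%), and 3 rose and 6 fell in parental cells (42.2%), counts near the share among all genes. TMEM173 fell in clone A (-1.86 ± 0.27) and clone B (-0.996 ± 0.22) and had 0.07 ± 0.20 in parental cells. IKBKE, a kinase that activates IRF3, fell in all genotypes (-3.06 ± 0.42, -3.07 ± 0.35 and -1.21 ± 0.28). TRIM25, which activates RIG-I, rose in all of them (1.55 ± 0.11, 0.66 ± 0.11 and 0.85 ± 0.11), and so did CGAS (0.88 ± 0.09, 0.72 ± 0.09 and 0.30 ± 0.09). 

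IFI16, a nuclear DNA sensor, was called lower in clone A and higher in clone B than in parental cells in TIFM. It had 0.502, 0.375 and 0.444 CPM in clone A, 3.46, 2.88 and 1.43 CPM in clone B, and 1.41, 1.28 and 1.89 CPM in parental cells (log2 -1.77 ± 0.37, adjusted p = 0.000183, and 0.77 ± 0.31, adjusted p = 0.0412, edgeR quasi-likelihood test). Clone B replicate 3 lay within the parental range, and leaving out single libraries was not run for this gene. LAMP3, a lysosomal membrane protein, rose in TIFM in all genotypes, with 5.79, 6.04 and 5.63 CPM in clone A, 35.9, 43 and 32.2 CPM in clone B, and 76.1, 76 and 64.7 CPM in parental cells in TIFM. Its log2 fold change over hypoxia was 1.22 ± 0.18 in clone A, 2.01 ± 0.16 in clone B and 2.66 ± 0.16 in parental cells. SAMHD1, a nucleotide hydrolase that starves retroviruses, fell in hypoxia in all genotypes (-0.99 ± 0.12, -0.68 ± 0.12 and -1.41 ± 0.12) and was higher than in parental cells in clone A (0.75 ± 0.12) and clone B (0.63 ± 0.12) in hypoxia.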
